A study of Mus musculus with 4 samples.

Results

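Protein phosphatase subunit genes, whose symbols start with Ppp followed by a phosphatase number from 1 to 6 and the letter of a catalytic (c) or regulatory (r) subunit, were read on 4 microarrays of RNA from mouse intestine. The rule took every probe set with 1 gene symbol that fits this pattern, which gave 94 of 21640 such probe sets and 79 of 19937 genes. Of these, 12 probe sets (11 genes) belong to catalytic subunits, 78 probe sets (64 genes) to regulatory subunits and 4 probe sets to 4 pseudogenes. The family was chosen on the deposited signal of its member Ppp4r2 after precipitation of Msi1, so its values in the comparisons with Msi1 are a description and support nothing further.

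Adult C57BL/6 mice gave the intestinal epithelium, whose RNA had been crosslinked by ultraviolet light to the proteins that held it. The input array carried RNA with no precipitation. The other 3 carried RNA precipitated with nonspecific IgG, with an antibody to the RNA-binding protein Musashi1 (Msi1, Millipore AB5977), or with an antibody to an hnRNP, an abundant class of nuclear RNA-binding proteins. The sources used here do not say which hnRNP. No genotype or treatment other than the antibody separates the arrays. Each group had 1 array, carrying RNA combined from 2 experiments, so there is no replicate check of any difference and no test was made.

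The PPP phosphatases remove phosphate from serine and threonine. A few catalytic subunits do the chemistry for the whole cell, and a much larger set of regulatory subunits decides where each catalytic subunit sits and what it acts on. PP1 binds its many partners in pairs. PP2A is built from a catalytic subunit, a scaffold and an exchangeable B subunit. Calcineurin, also called PP2B, answers calcium through calmodulin and its own calcium-binding B subunit. PP4 and PP6 resemble PP2A in their catalytic subunits and have regulators of their own, while PP5 carries its regulatory domain in the same chain.

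A detection floor was set on each array at the 95th percentile of 1208 probe sets of olfactory and vomeronasal receptors, which the gut should not express. It lay at 4.09 log2 units on input, 5.26 on IgG, 4.74 on Msi1 and 5.17 on hnRNP. All 12 markers of gut epithelium exceeded the input floor, with signals from 7.61 to 12.79. Of the markers of other cells, 4 of 6 for immune cells, 3 of 8 for muscle and stroma, 1 of 6 for neurons and glia and 0 of 3 for endothelium exceeded it. Summarized signals depend on the probes as well as on the RNA, so levels of different probe sets are not compared. Fewer cells of a type and less RNA per cell cannot be told apart on these arrays.

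Phosphatase subunits were detected in the epithelium more often than probe sets at large. On input 71 of the 94 probe sets (75.5%) exceeded the floor, beside 59% of all probe sets with 1 symbol. On Msi1 it was 60 (63.8%, beside 47.4%), on IgG 35 (37.2%, beside 27.5%) and on hnRNP 37 (39.4%, beside 32.3%). Catalytic subunits stood above the input floor on 11 of 12 probe sets, regulatory subunits on 60 of 78 and pseudogenes on 0 of 4. In total 78 probe sets exceeded the floor of at least 1 array.

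The catalytic subunits of PP1 differed from each other after precipitation. Ppp1ca, the alpha form, read 9.04 on input, 5.73 on IgG, 5.44 on Msi1 and 5.31 on hnRNP. Its 3 precipitates lay close together and far below input. Ppp1cb, the beta form that is the catalytic part of myosin phosphatase, read 8.52 on input, 5.06 on IgG, 7.85 on Msi1 and 4.77 on hnRNP. Only its Msi1 value stood near input, and since IgG was below its floor, Msi1 was at least 6.02-fold higher than IgG (2.79 log2 units as deposited).

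Ppp1cc, the gamma form, was read by 2 probe sets that pointed in opposite directions. Set 2 of the plot by catalytic gene read 9.19 on input, 4.90 on IgG, 8.22 on Msi1 and 4.60 on hnRNP, which made Msi1 at least 7.76-fold higher than IgG. Set 1 read 6.86 on input, 5.81 on IgG, 4.04 on Msi1 and 5.25 on hnRNP, which made Msi1 at least 2.11-fold lower than IgG. The annotation gives both probe sets the same 8 accessions. RefSeq also lists a near copy of this gene, Ppp1ccb, with Ppp1cc among its synonyms, so which locus each probe set reads is uncertain.

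Both catalytic subunits of PP2A, the most abundant phosphatase of many cells, were higher in Msi1 than in IgG. Ppp2ca read 9.10 on input, 4.36 on IgG, 6.66 on Msi1 and 4.22 on hnRNP. It was at least 2.64-fold higher in Msi1 than IgG and 5.40-fold lower in Msi1 than in input. Ppp2cb read 8.11 on input, 5.86 on IgG, 7.59 on Msi1 and 5.82 on hnRNP. It was above the floor on every array, so its 3.32-fold excess over IgG (1.73 log2 units) is a measured value and not a bound.

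The 3 calcineurin A genes encode alternative catalytic subunits, and a single member carried the difference. Ppp3cb read 7.33 on input, 4.22 on IgG, 6.39 on Msi1 and 4.08 on hnRNP, at least 2.18-fold higher in Msi1 than IgG. Ppp3ca read 7.04 on input, 4.49 on IgG, 4.60 on Msi1 and 4.48 on hnRNP. It was thus detected on input and below the floor of each precipitate. Ppp3cc read 4.06 on input, 4.12 on IgG, 4.72 on Msi1 and 3.75 on hnRNP, under the floor on all 4 arrays though by little on input and Msi1.

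The catalytic subunits of PP4, PP5 and PP6 all lay at least 2-fold lower in Msi1 than in input, and differed in their excess over IgG. Ppp4c read 7.89 on input, 5.29 on IgG, 5.49 on Msi1 and 6.10 on hnRNP, with Msi1 0.20 above IgG. Ppp5c, whose product works with the chaperone Hsp90, read 7.84 on input, 5.14 on IgG, 6.27 on Msi1 and 5.92 on hnRNP, at least 2.01-fold higher in Msi1 than IgG. Ppp6c read 7.43 on input, 3.51 on IgG, 5.08 on Msi1 and 2.90 on hnRNP. It differed from IgG by 1.57 as deposited, but its Msi1 value lay under the IgG floor, so no fold can be stated.

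**Figure D1:**
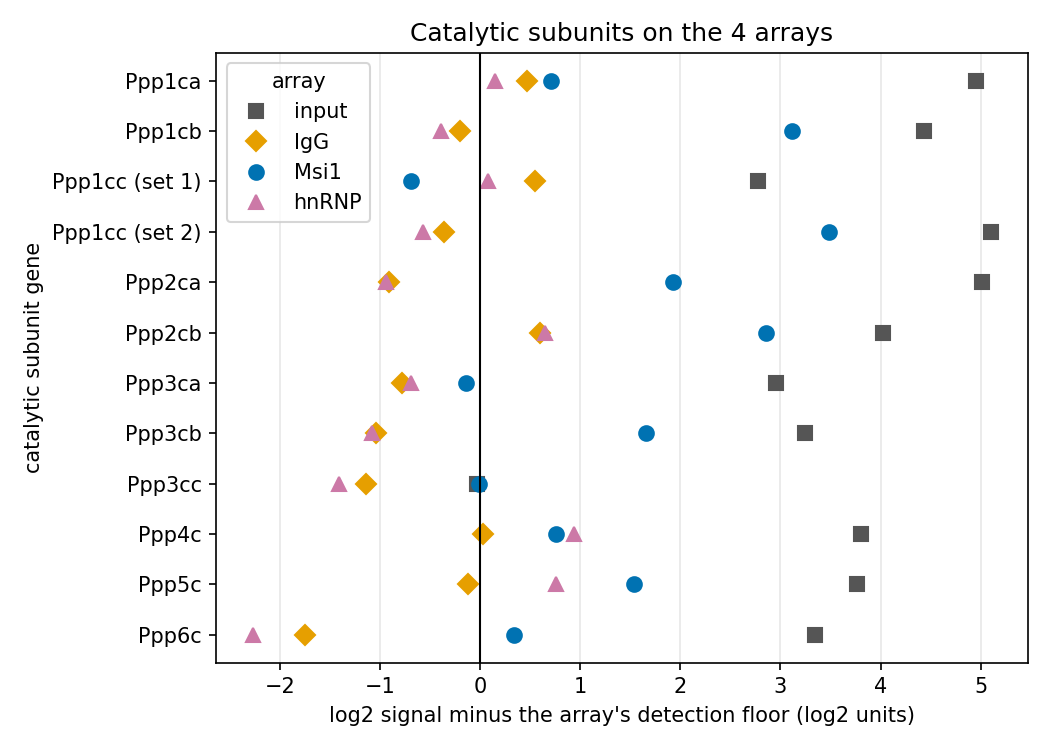
Signal of the 12 catalytic probe sets on the 4 arrays, as log2 signal minus the detection floor of that array (x axis), with 1 row per probe set and 1 marker per array; the vertical line is the floor. Input lies far to the right except for Ppp3cc. In the other rows Msi1 comes closest to input, though clearly left of it, for Ppp1cb, Ppp1cc (set 2), Ppp2cb and Ppp3cb. IgG and hnRNP lie near or under the floor.

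Against IgG, 26 of the 94 member probe sets exceeded IgG by 2-fold or more on the Msi1 array and 8 lay below it by as much. These are 26 and 8 of the 66 members above the floor on Msi1 or IgG (39.4% and 12.1%), beside 19.8% and 7.04% of the 11164 probe sets of all genes that passed the same floor. Catalytic subunits gave 7 higher of 10 (70%) and regulatory subunits 19 higher of 55 (34.5%). Markers of gut epithelium gave 7 higher of 12. Of the 26 higher members, 21 passed the filter through Msi1 alone, where they had to be higher, and 5 exceeded it on both arrays. With the dimmer value raised to its floor, 17 members stayed at least 2-fold higher (11.5% of all probe sets did) and 4 lower (4.02%). Among members above the input floor, 25 of 59 were higher, beside 22.6% of all such probe sets. The median difference of the 66 members was 0.54 log2 units, beside 0.09 for all probe sets that passed the same floor. For the receptors, taken with no floor, it was −0.38, beside −0.18 for all probe sets with no floor.

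**Figure D2:**
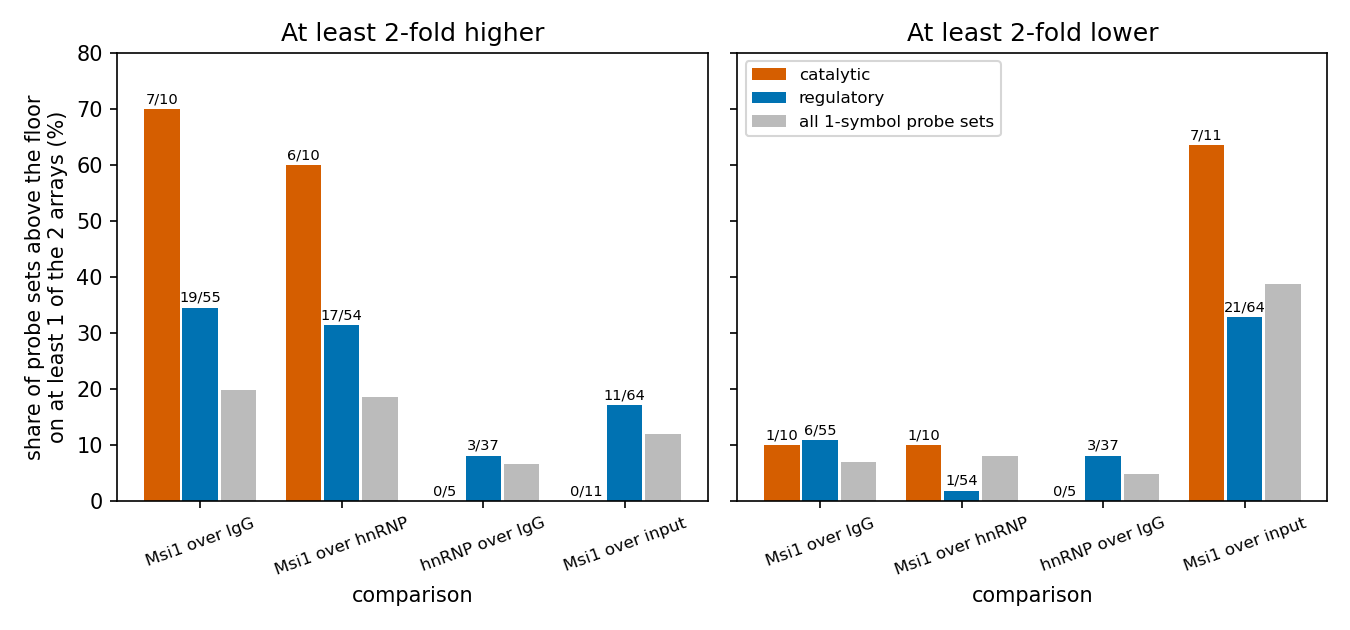
Share of tested probe sets (y axis, percent) at least 2-fold higher (left) or lower (right) in each comparison, for catalytic subunits, regulatory subunits and all probe sets with 1 symbol; the numbers over the bars are members called over members tested, and 1 array per group gives no error bar. The catalytic bar is the tallest for higher in Msi1 than IgG (7 of 10) and than hnRNP (6 of 10), and for lower in Msi1 than input (7 of 11).

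PP4 regulators held the member with the highest excess. Ppp4r2, the core regulatory subunit that joins the PP4 catalytic subunit to a Ppp4r3 protein and takes part in the response to DNA breaks, read 7.42 on input, 3.03 on IgG, 10.08 on Msi1 and 4.57 on hnRNP. Its Msi1 value stood above all other arrays, input included. The difference from IgG was 7.05 log2 units as deposited, and at least 28.1-fold once IgG is set at its floor. Msi1 was 6.31-fold higher than input, where both values were well above the floor.

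The other detected PP4 regulators were higher than IgG but lower than input. Ppp4r3a, a subunit of the same complex, read 7.80 on input, 3.90 on IgG, 6.64 on Msi1 and 3.42 on hnRNP, at least 2.60-fold higher in Msi1 than IgG. Its relative Ppp4r3b read 8.78 on input, 4.02 on IgG, 6.03 on Msi1 and 4.09 on hnRNP, at least 1.70-fold higher. Ppp4r1, a scaffold-like regulator, read 8.07 on input, 3.81 on IgG, 5.69 on Msi1 and 4.82 on hnRNP, at least 1.34-fold higher. All 4 detected PP4 regulators were thus past 2-fold over IgG as deposited and 2 of 4 with IgG at its floor, beside 19.8% and 11.5% of all probe sets. All 4 passed the filter through Msi1 alone, and they include Ppp4r2, on which the family was chosen. Ppp4c differed by 0.20. Ppp4r4 was below the floor on every array.

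Of the B56 subunits, which guide PP2A to many of its substrates, Ppp2r5c (B56 gamma) was higher in Msi1 on all 4 of its probe sets. The probe set with the largest difference read 6.84 on input, 5.82 on IgG, 9.15 on Msi1 and 4.54 on hnRNP, so Msi1 was 10.1-fold higher than IgG and 4.97-fold higher than input. Another read 6.18 on input, 4.53 on IgG, 7.26 on Msi1 and 5.37 on hnRNP, at least 4.0-fold over IgG and 2.12-fold over input. On these 2 probe sets the Msi1 array was the highest of the 4. On the other 2 the input array was highest. The first of these read 8.19 on input, 4.56 on IgG, 7.55 on Msi1 and 5.83 on hnRNP (at least 4.88-fold over IgG), and the last read 8.49 on input, 6.04 on IgG, 7.46 on Msi1 and 6.78 on hnRNP (2.67-fold over IgG). With quantile normalization the difference of this last probe set from IgG was 0.99, just under 2-fold.

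Ppp2r5a (B56 alpha) gave 4 readings that disagreed. A probe set read 6.69 on input, 2.28 on IgG, 5.87 on Msi1 and 4.45 on hnRNP, which is 3.59 above IgG as deposited but at least 1.52-fold with IgG at its floor. A second read 5.10 on input, 6.67 on IgG, 5.10 on Msi1 and 6.59 on hnRNP, 2.96-fold lower in Msi1 than in IgG. Another read 6.18 on input, 5.0 on IgG, 5.49 on Msi1 and 4.88 on hnRNP. The last read 7.56 on input, 3.46 on IgG, 3.73 on Msi1 and 4.09 on hnRNP, and was detected on input only. The 4 share 2 of their 3 accessions, and whether any of them reads another locus was not tested.

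Of the remaining B56 genes, Ppp2r5d counts among the members higher in Msi1 than IgG (1.33 as deposited) and Ppp2r5b among the lower (−1.10). Ppp2r5d read 7.10 on input, 3.99 on IgG, 5.32 on Msi1 and 4.16 on hnRNP, at least 1.04-fold higher in Msi1 than IgG. Ppp2r5b read 5.85 on input, 5.61 on IgG, 4.51 on Msi1 and 4.51 on hnRNP, at least 1.83-fold lower. Ppp2r5e read 5.99 on input, 4.16 on IgG, 4.53 on Msi1 and 4.41 on hnRNP, under the floor of the 3 precipitates.

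Scaffold genes of PP2A lay within 2-fold of IgG in Msi1, while the B55 genes Ppp2r2a and Ppp2r2d were past 2-fold as deposited. Ppp2r1a, the main scaffold, read 9.67 on input, 5.07 on IgG, 5.85 on Msi1 and 4.09 on hnRNP. It was 14.2-fold lower in Msi1 than in input, among the largest such gaps of the family. The second scaffold Ppp2r1b read 5.35 on input, 5.38 on IgG, 4.86 on Msi1 and 5.50 on hnRNP. Of the B55 genes, Ppp2r2d, which acts at the exit from mitosis, read 5.18 on input, 5.04 on IgG, 6.07 on Msi1 and 5.08 on hnRNP, 1.03 above IgG in Msi1 as deposited and at least 1.75-fold higher. Ppp2r2a read 6.45 on input, 3.92 on IgG, 5.22 on Msi1 and 4.56 on hnRNP, 1.29 above IgG in Msi1 as deposited but with no fold to be stated. Ppp2r2b and Ppp2r2c were below the floor on all arrays. Ppp2r3c, a B'' subunit gene, read 5.77 on input, 5.53 on IgG, 4.80 on Msi1 and 4.37 on hnRNP, and its relative Ppp2r3a differed from IgG by 0.43.

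**Figure D3:**
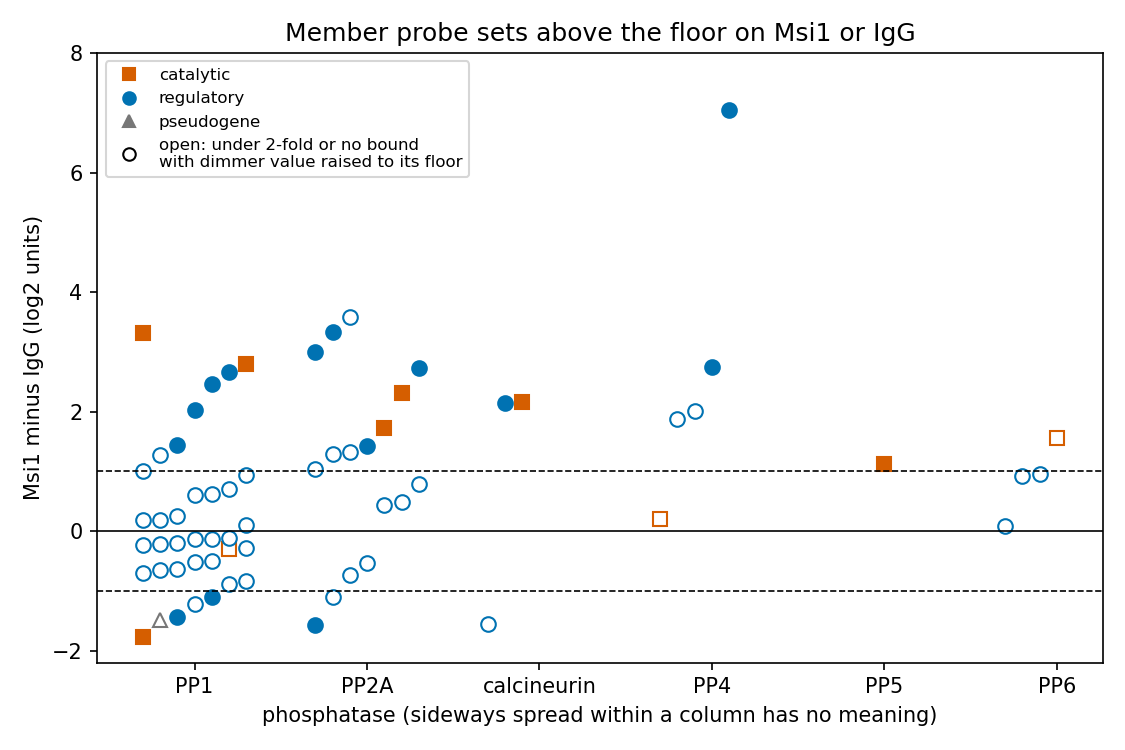
Difference of Msi1 minus IgG in log2 units (y axis) for the 66 member probe sets above the floor on Msi1 or IgG, by phosphatase (x axis) and kind of subunit; filled markers stay at least 2-fold apart with the dimmer value raised to its floor, and dashed lines mark 2-fold. PP1 spreads to both sides of 0, PP2A and PP4 lie mostly above it, and Ppp4r2 at 7.05 is the highest marker.

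PP1 regulators, the largest class, had shares close to those of all probe sets. Of 31 regulatory probe sets tested, 6 lay 2-fold or more above IgG in Msi1 (19.4%, beside 19.8%) and 3 as far below (9.68%, beside 7.04%), with a median of −0.13. Ppp1r12a, the subunit that targets PP1 to myosin, read 7.22 on input, 4.97 on IgG, 7.0 on Msi1 and 4.75 on hnRNP, at least 3.33-fold higher in Msi1 than IgG and 0.22 below input. Ppp1r2, which encodes inhibitor-2, read 6.49 on input, 6.16 on IgG, 7.61 on Msi1 and 6.33 on hnRNP. It was above every floor, 2.72-fold over IgG and 2.17-fold over input. With quantile normalization its difference from IgG was 0.95, under 2-fold. Probe sets that Ppp1r2 shares with a pseudogene read otherwise and are described in the closing section.

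Probe sets for regulators of the eIF2 phosphatase, which restores translation after stress, gave unlike readings. Ppp1r15b, its constitutive subunit, read 6.13 on input, 4.66 on IgG, 7.13 on Msi1 and 4.80 on hnRNP on 1 probe set, at least 3.63-fold higher in Msi1 than IgG. Its other probe set, which shares 0 accessions with the first, read 4.95 on input, 6.01 on IgG, 5.87 on Msi1 and 6.09 on hnRNP. Ppp1r15a, the stress-induced subunit, read 4.68 on input, 5.25 on IgG, 4.39 on Msi1 and 5.25 on hnRNP. The first Ppp1r15b probe set therefore stands apart from both other readings.

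The small PP1 inhibitors of the Ppp1r14 group also differed from each other. Ppp1r14b read 7.15 on input, 6.05 on IgG, 8.71 on Msi1 and 5.47 on hnRNP on 1 probe set, 6.35-fold over IgG in Msi1 and 2.96-fold higher than in input. Its second probe set, annotated with the same 5 accessions, read 6.25 on input, 5.38 on IgG, 6.31 on Msi1 and 6.93 on hnRNP, with hnRNP the highest array. Whether either Ppp1r14b probe set reads another locus was not tested. Ppp1r14d, named for its expression in gut and brain, read 7.58 on input, 5.49 on IgG, 5.37 on Msi1 and 5.35 on hnRNP. It was 4.62-fold lower in Msi1 than in input, and the 3 precipitates were alike within 0.15 log2 units. Ppp1r14a, an inhibitor of myosin phosphatase in smooth muscle, read 5.06 on input, 5.78 on IgG, 5.07 on Msi1 and 5.63 on hnRNP. Ppp1r14c read 4.46 on input, 4.99 on IgG, 5.62 on Msi1 and 5.90 on hnRNP.

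Several PP1 regulators were lower in Msi1 than in IgG. Ppp1r13l, an inhibitor of p53-type factors, read 4.32 on input, 6.20 on IgG, 4.77 on Msi1 and 5.59 on hnRNP, 2.70-fold lower. Ppp1r13b, which instead stimulates p53, read 6.47 on input, 5.38 on IgG, 4.16 on Msi1 and 5.04 on hnRNP, at least 1.56-fold lower. Ppp1r27 read 3.32 on input, 5.78 on IgG, 4.67 on Msi1 and 5.32 on hnRNP, at least 2.06-fold lower, and it was under the floor on input and Msi1. All 3 were lower on Msi1 than on IgG and hnRNP, and Ppp1r13b alone had its highest value on input.

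Nuclear and other PP1 partners differed little from IgG, apart from Ppp1r7 near background. Ppp1r8, a nuclear inhibitor of PP1, read 5.89 on input, 5.69 on IgG, 5.88 on Msi1 and 5.20 on hnRNP. Ppp1r10, which anchors PP1 in the nucleus, read 7.12 on input, 4.75 on IgG, 4.02 on Msi1 and 4.09 on hnRNP, at least 5.23-fold lower in Msi1 than in input. Ppp1r7 read 7.28 on input, 3.95 on IgG, 4.96 on Msi1 and 4.52 on hnRNP, 2.32 log2 units lower in Msi1 than in input and 1.01 above IgG, with no fold to be stated over IgG. Ppp1r1b, an inhibitor of PP1 best known from neurons that respond to dopamine, read 7.61 on input, 6.19 on IgG, 5.68 on Msi1 and 6.65 on hnRNP.

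Ppp1r12b, a myosin-targeting subunit best known from muscle, was read by 7 probe sets. Their differences of Msi1 minus IgG ran from −0.88 to 1.27, and 1 was past 2-fold. That probe set read 3.49 on input, 3.50 on IgG, 4.77 on Msi1 and 3.77 on hnRNP, just over the Msi1 floor of 4.74, so no fold over IgG can be stated. Another Ppp1r12b probe set read 6.74 on input, 5.37 on IgG, 5.97 on Msi1 and 5.65 on hnRNP, and the next read 6.60 on input, 4.90 on IgG, 4.15 on Msi1 and 4.40 on hnRNP. A further probe set read 6.36 on input, 5.80 on IgG, 4.92 on Msi1 and 5.58 on hnRNP. The remaining 3 read between 3.85 and 5.40 on every array. The 8 muscle and stroma markers read 3.02 to 4.80 on input, 4.34 to 6.50 on IgG, 4.31 to 6.20 on Msi1 and 4.67 to 6.45 on hnRNP, and their part in the Ppp1r12b signal was not tested. Of the glycogen-targeting subunits, Ppp1r3a and Ppp1r3c were under every floor, and Ppp1r3b read 4.10 on input and was under the floor of each precipitate. Ppp1r3d, Ppp1r3e and Ppp1r3g exceeded the floor on all 4 arrays and differed between Msi1 and IgG by −0.19, −0.29 and −0.64. Ppp1r3e read 5.66 on input, 6.78 on IgG, 6.49 on Msi1 and 7.09 on hnRNP, and Ppp1r3f exceeded the floor on IgG and Msi1 only.

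**Figure D4:**
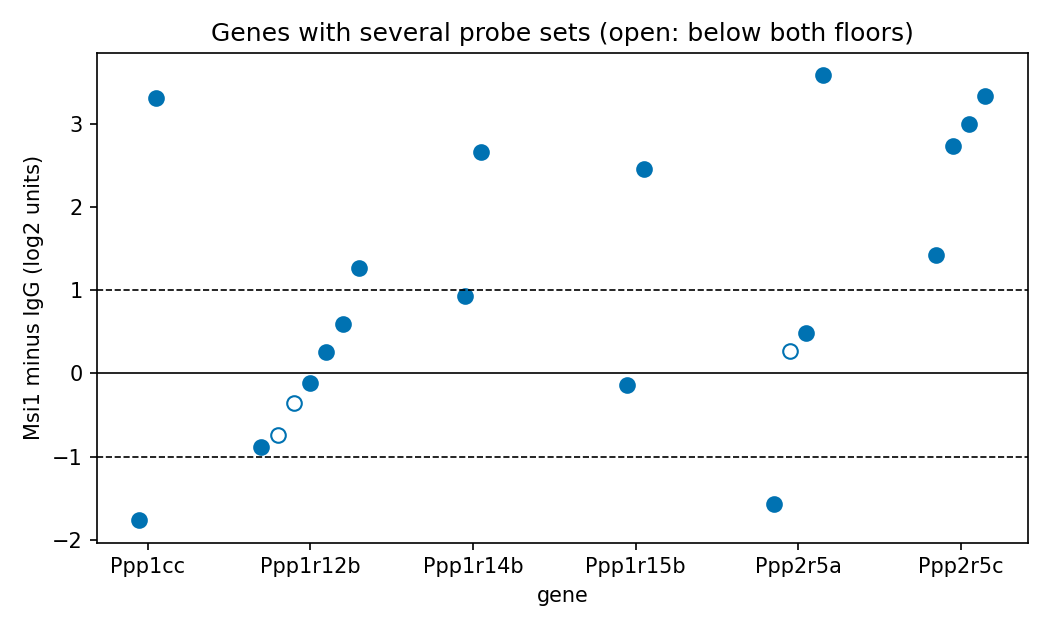
Difference of Msi1 minus IgG in log2 units (y axis) for each probe set of the 6 genes that had more than 1 (x axis), with dashed lines at 2-fold and open markers for probe sets below the floor on both arrays. The 4 Ppp2r5c markers all lie above 2-fold, whereas Ppp1cc and Ppp2r5a have markers past 2-fold on both sides.

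Calcineurin and PP6 have few regulators. Ppp3r1, the calcium-binding B subunit of calcineurin, read 6.25 on input, 4.26 on IgG, 6.41 on Msi1 and 4.21 on hnRNP. It was at least 2.21-fold higher in Msi1 than IgG and 0.16 above input. Its testis form Ppp3r2 read 2.50 on input, 5.48 on IgG, 3.92 on Msi1 and 4.57 on hnRNP, at least 1.68-fold lower in Msi1 than in IgG. Of the PP6 regulators, Ppp6r1 read 8.27 on input, 4.62 on IgG, 5.53 on Msi1 and 4.30 on hnRNP, and Ppp6r3 read 7.46, 4.94, 5.89 and 4.66 on the same arrays in that order. They exceeded IgG in Msi1 at least 1.20-fold and 1.55-fold. Ppp6r2 read 5.62 on input, 4.94 on IgG, 5.02 on Msi1 and 5.27 on hnRNP.

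Against input, more members were lower than higher in Msi1. Of 75 members tested, 28 were at least 2-fold lower in Msi1 than in input (37.3%, beside 38.7% of all probe sets) and 11 at least 2-fold higher (14.7%, beside 11.9%), shares near those of all probe sets. With the dimmer value at its floor the counts were 27 (beside 35%) and 8 (beside 8.53%). These counts depend on scaling, with 13 lower and 20 higher after loess centring. Catalytic subunits were lower on 7 of 11 probe sets and higher on 0, with a median difference of −2.36, beside −0.57 for all probe sets. Markers of gut epithelium were lower on 12 of 12, with a median of −3.00. Whether such gaps follow the input signal was not tested. Among regulators measured above both floors, the largest gaps were those of Ppp2r1a (−3.83), Ppp4r3b (−2.75) and Ppp6r1 (−2.74). The last Ppp2r5a probe set and Ppp1r10 were under the Msi1 floor, so they were at least 7.07-fold and 5.23-fold lower than input. Input was the highest of the 4 arrays for each of these.

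The members higher in Msi1 than in input were all regulatory. Ppp4r2 led with 2.66, followed by Ppp2r5c with 2.31 on its leading probe set. Ppp1r1a, which encodes inhibitor-1, came next with 1.99, but it read 4.36 on input, 6.58 on IgG, 6.35 on Msi1 and 6.90 on hnRNP, so IgG and hnRNP exceeded input as well. Ppp1r3f, with 1.42, read 3.58 on input, 5.83 on IgG, 5.0 on Msi1 and 5.09 on hnRNP, likewise higher on IgG than on Msi1.

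Only 6 of the 94 probe sets exceeded, by 2-fold or more in Msi1, their value on each of the other 3 arrays. That is 7.69% of the 78 members above some floor, beside 1.24% of all probe sets. They were the Ppp4r2 probe set, 2 of Ppp2r5c, 1 of Ppp1r14b, the Ppp1r2 probe set and 1 of Ppp1r12b, the last close to background. Ppp1r15b fell just short, with 1.00 over input after rounding. No catalytic probe set was among them. This count was made after the values were seen.

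**Figure D5:**
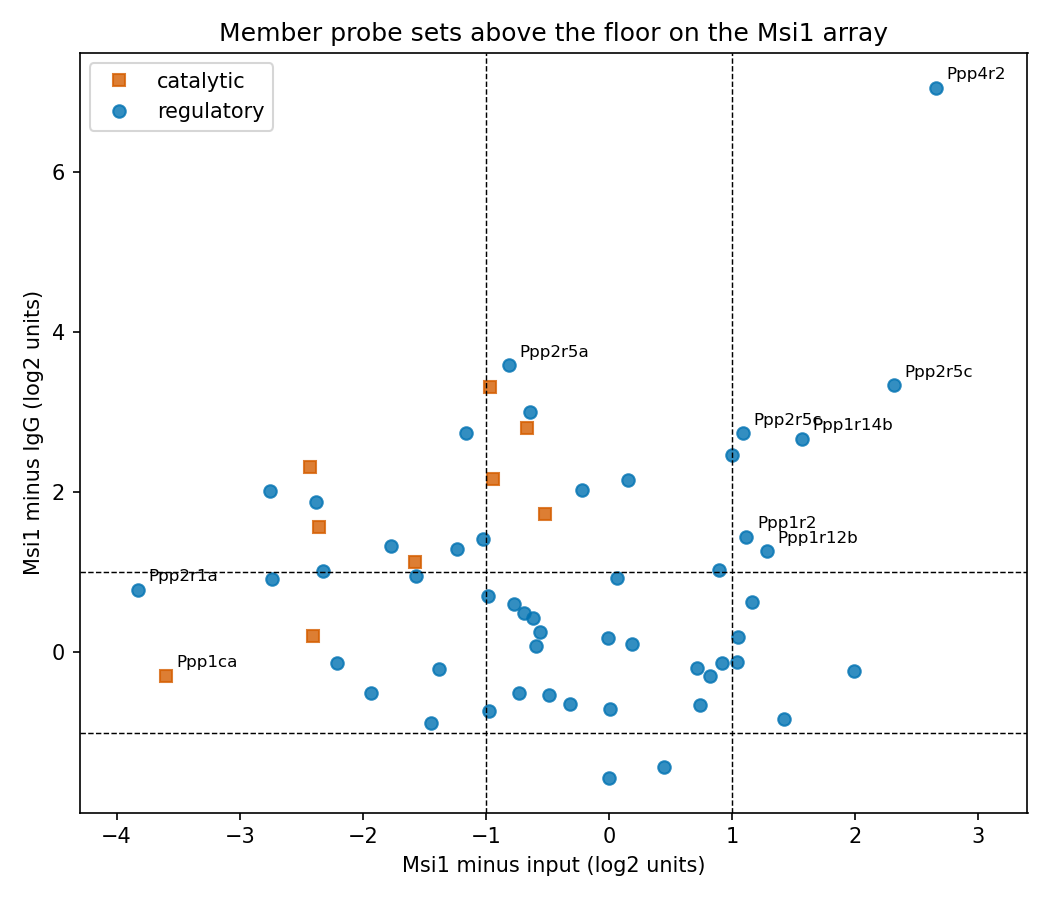
Difference of Msi1 minus input (x axis) and of Msi1 minus IgG (y axis), both in log2 units, for the 60 member probe sets above the Msi1 floor; dashed lines mark 2-fold, and because both axes contain the Msi1 value they are not independent. Ppp4r2 lies at the upper right (2.66 and 7.05), while catalytic subunits lie left of 0 on the x axis.

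Against the hnRNP precipitation, 23 of 65 members tested had 2-fold or more in Msi1's favour (35.4%, beside 18.6% of all probe sets) and 3 at least 2-fold lower (beside 7.94%). Of the 23 higher members, 18 passed the filter through Msi1 alone, where they had to be higher, and 5 exceeded the floor on both arrays. With the dimmer value at its floor, 15 were higher (beside 11.6%) and 1 lower (beside 4.15%). Ppp1r14b, above both floors, differed by 3.24 log2 units on its first probe set and by −0.61 on its second. With hnRNP under its floor, Ppp4r2 was at least 30.1-fold higher in Msi1 than hnRNP, the leading Ppp2r5c probe set at least 15.9-fold and Ppp1r15b at least 3.89-fold. Ppp4r3a differed by 3.22 as deposited and by 1.47 with hnRNP at its floor. Among catalytic subunits Ppp1cc on set 2 was at least 8.31-fold and Ppp1cb at least 6.44-fold higher. Ppp1cc on set 1 differed by −1.20 and the pseudogene Ppp1r2-ps7 by −1.62. Both had Msi1 under its floor and count among the 3 lower members. The lowest regulators were Ppp2r5a on its second probe set (−1.49), Ppp1r35 (−0.99), Ppp1r1b (−0.97) and Ppp1r16a (−0.87). Ppp1r16b differed by −0.95 as deposited and by −0.66 with Msi1 at its floor. Ppp1r16a, a membrane-anchored PP1 subunit gene, read 5.85 on input, 5.62 on IgG, 5.12 on Msi1 and 5.98 on hnRNP, and its relative Ppp1r16b read 4.91 on input, 5.05 on IgG, 4.45 on Msi1 and 5.40 on hnRNP.

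The hnRNP and IgG arrays differed little over the family. Of 43 members tested, 3 were at least 2-fold higher in hnRNP (beside 6.58% of all probe sets) and 3 lower (beside 4.76%), and 2 and 0 with the dimmer value at its floor (beside 1.79% and 1.3%). The higher members were Ppp1r14b on its second probe set (1.55), Ppp2r5c (1.27) and Ppp1r35, a centriole protein gene (1.09), which read 5.50 on input, 5.59 on IgG, 5.68 on Msi1 and 6.68 on hnRNP. That Ppp2r5c difference is 0.56 with IgG at its floor. The lower were Ppp2r5c on its leading probe set (−1.27), Ppp2r3c (−1.16) and Ppp2r5b (−1.10), all with hnRNP under its floor. No catalytic subunit was past 2-fold. With quantile normalization 7 members were higher and 5 lower. Ppp4r2 was under the floor on both arrays. The comparisons of Msi1 and of hnRNP with IgG share the IgG array, and the 3 comparisons with Msi1 share the Msi1 array.

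Below every floor were 16 probe sets, among them Ppp3cc, 12 regulatory genes and 3 pseudogenes, with signals between 2.04 and 4.95. The pseudogene Ppp1r2-ps7 alone exceeded a floor, with 3.09 on input, 5.28 on IgG, 3.80 on Msi1 and 5.41 on hnRNP.

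Genes that act with these phosphatases under other names were counted in the same way against IgG, beside the same 19.8% higher and 7.04% lower of all probe sets. Of PP2A maturation factors and inhibitors, 6 of 9 probe sets tested lay 2-fold or more above IgG and 0 below. All 6 passed the filter through Msi1 alone, where they had to be higher. Arpp19, which inhibits PP2A with B55 at mitosis once phosphorylated, differed by 3.99 (at least 3.86-fold) and Anp32e by 1.87 (at least 2.60-fold), and the activator gene Ptpa by −0.02. With IgG at its floor 2 of the 9 stayed past 2-fold, beside 11.5% of all probe sets, the share that also stands beside the counts at the floor that follow. Of the striatin complex, in which striatins serve as PP2A B subunits, 6 of 9 were higher and 0 lower. All 6 again passed through Msi1 alone. Strn3 differed by 3.75 (at least 4.97-fold) and was 1.49 above input. Its relatives Strn and Strn4 differed from IgG by 0.67 and 0.28, and from input by −1.76 and −1.78. Pdcd10, an adaptor of the complex, differed by 3.01 (at least 7.63-fold) on 1 probe set, while the other was under the floor of both arrays. With IgG at its floor 3 of the 9 stayed past 2-fold.

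Partners of PP1 and calcineurin and the PPM phosphatases were counted likewise. Of PP1 partners with other symbols, 2 of 9 were higher and 0 lower, and 1 stayed higher with IgG at its floor. Tox4, which sits in a nuclear PP1 complex with Ppp1r10 and Wdr82, read 7.55 on input, 2.03 on IgG, 9.82 on Msi1 and 3.07 on hnRNP, at least 23.5-fold higher in Msi1 than IgG, whereas Wdr82 differed from IgG by 0.60 and Ppp1r10 was under the floor of every precipitate. Of calcineurin partners and targets, 4 of 11 were higher and 0 lower, and all 4 stayed higher with IgG at its floor. These were both Calm2 probe sets (6.03 and 4.58), Calm3 (1.20) and the transcription factor Nfatc3 (1.54, at least 2.29-fold). The lowest of the 11 were Nfatc1 (−0.78), a relative of Nfatc3, and Crtc3 (−0.44), and the median was 0.44. Of the PPM phosphatases, a family apart that works without such subunits, 3 of 17 were higher and 2 lower, with a median of −0.18, and 2 stayed higher with IgG at its floor. Ppm1a was 4.74-fold over IgG in Msi1 and Ppm1n, with Msi1 under its floor, at least 2.35-fold lower. Calm3 and Ppm1a exceeded the floor on IgG as well. The other higher probe sets of these lists passed the filter through Msi1 alone.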

How the data were processed

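Values were log2 signals as deposited by the authors, 1 per probe set and array, for 34760 probe sets. Per the submitters' processing notes affy was used, its version unstated. For background correction, normalization and the log base nothing is stated in those notes or labels, and base 2 was inferred from the range of 1.07 to 14.3. Per the labels, each array carried RNA of 2 experiments and 100 ng was labelled. Arrays of the 4 groups were assigned by the antibody label. Their standard deviations (1.17 to 2.01) differ, so equal distributions were not imposed. Gene symbols came from the platform annotation. All 94 member probe sets matched RefSeq by Entrez identifier.

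Differences were taken where either array compared exceeded its floor, and called at 2-fold. A fold against a value under its floor uses the floor and is written "at least". The number of arrays limits precision, and no p-values were computed. The members, lists and naming rule were chosen with earlier results of these data known. All catalytic genes, regulatory genes past 2-fold of IgG with the dimmer value at its floor, the 5 members at either end of each other comparison and textbook members were named, others added after their values were seen. Alternatives were scalings (loess span 0.4), floors and 1 probe set per gene. Calls were tested on simulated data in which only probe sets above the IgG floor were changed. All simulated arrays were copies of the IgG array with added noise, whereas floors and standard deviations differ between the real arrays. That test does not bear on this difference, nor on members with IgG under its floor. Python 3.11.15, pandas 2.3.3, numpy 2.4.6, statsmodels 0.14.6 and matplotlib 3.10.9 were used.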

Additional observations from a re-analysis of the deposited data

Results flagged for a closer look

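Outside the member probe sets, 4 probe sets carry both Ppp1r2 and the pseudogene Ppp1r2-ps3 and were not used above. On 1 of them the hnRNP array exceeded IgG by 3.49 log2 units, above its own floor, with 6.20 on input, 1.89 on IgG, 1.72 on Msi1 and 5.38 on hnRNP. The IgG floor was 5.26, close to that hnRNP value, and this probe set cannot tell the gene from the pseudogene. Over the 4 probe sets Msi1 minus IgG was −0.99, −0.17, −1.79 and 0.91, the −0.17 with both arrays under their floors. On the Ppp1r2 probe set used above it was 1.45, so the shared probe sets do not repeat that excess. Which locus they read was not tested.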

How the results depend on the processing

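Median centring moved the median Msi1 minus IgG difference of all tested probe sets from 0.09 to 0.22, quantile normalization to 0.06 and loess centring to 0.14. Members higher in Msi1 than IgG (26) fell to 17 with the dimmer value at its floor and to 5 with both arrays above it, and those lower (8) to 4 and 2, and to 2 with the floor at the 99th percentile. Over hnRNP the 23 higher became 15 and 5, and the 3 lower became 1 under these 3 settings and 11 with quantile normalization. Against input, the 11 higher became 20 with loess centring, 6 with median centring and 7 with 1 probe set per gene, and the 28 lower became 13 with loess centring and 13 with quantile normalization. For hnRNP over IgG, the 3 higher became 7 with quantile normalization, 6 with no floor and 1 with 1 probe set per gene, and the 3 lower became 5 with quantile normalization, 5 with no floor, and 0 with the dimmer value at its floor, with both arrays above it or with the higher floor. The 6 members above all other arrays became 13 with loess centring, 3 with 1 probe set per gene and 2 with both arrays above the floor. The higher floor left 11 members detected on IgG, 37 on Msi1 and 17 on hnRNP. The cause of the scaling shifts was not tested. Stricter floors and 1 probe set per gene leave fewer probe sets. Of 56 named probe sets, only the Msi1 minus IgG differences were recomputed, and none past 2-fold changed sign. Of these 398 values, 384 moved by less than the 0.61 spread of the receptors and the other 14, all with the dimmer value at its floor, moved by more. The other floor settings and 1 probe set per gene leave each difference as it was, so they could not move it. They gave 56 values at the higher floor, 56 with no floor, 23 above both floors and 44 with 1 probe set per gene. Those values are part of the 384 and are no check of stability. Probe sets with no bound had no value with the dimmer value at its floor. No paired analysis was possible because each group has 1 array.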
